A study of Chlamydomonas reinhardtii with 4 samples.

Results

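Among the genes of the green alga Chlamydomonas reinhardtii that carry an identifier but no symbol in the deposited tables, 189 were higher with silver nanoparticles (AgNPs) than in the control both after 2 h and after 12 h. They were chosen from 17741 genes in all, of which 14850 had no symbol and 2095 of those averaged 5 FPKM or more across the libraries. FPKM is the number of sequenced fragments scaled to transcript length and library size. For each gene log2(FPKM + 1) of the control was subtracted from that of the AgNP library of the same time, and the difference was centred on the median of the 3271 genes, with or without a symbol, that averaged 5 FPKM or more (the tested genes). This centred difference is called the effect here. A gene was taken when its effect came to a 1.5-fold difference or more at both times, so the effects below describe the choice and are not findings in themselves.

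All libraries came from the wild-type strain FACHB-1121 grown in TAP, an acetate medium for this alga. The groups were a control (CK) and a culture given 0.5 mg/L AgNPs, each sampled at 2 h and at 12 h, with 1 library per group. There is therefore no replicate error and all differences compare single libraries. No test is given, since the genes were chosen by these same differences. In RNA from a whole culture a higher level per cell and a larger share of cells holding the transcript cannot be told apart.

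Silver nanoparticles release silver ions, which are chemically close to copper(I) ions and bind to thiol groups of proteins. In Chlamydomonas, CYC6, which encodes the cytochrome that replaces plastocyanin, and FDX5, which encodes a ferredoxin, are known for their induction by copper deficiency. Genes known only by a locus identifier come from gene prediction, and neither the deposited tables nor the RefSeq gene table gives a product for any of the 189, so no role is given to them here. That RefSeq table gives no symbol other than the locus tag for any gene, so its silence is not particular to the 189.

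The libraries differed in scale. The FPKM of all genes summed to 492502 for CK at 2 h, 1143200 for CK at 12 h, 1252800 for AgNPs at 2 h and 1663730 for AgNPs at 12 h. The median tested gene was 0.48 higher with AgNPs at 2 h and 0.44 higher at 12 h on the log2 scale, and 0.26 higher at 12 h than at 2 h in the controls and 0.20 with AgNPs. All directions below are relative to these medians unless FPKM are given. Read depth is not stated. The spacing of values under 0.2 FPKM would put it, relative to CK at 2 h, at 0.566 for CK at 12 h, 0.566 for AgNPs at 2 h and 0.363 for AgNPs at 12 h. Of low genes 14.0% at most showed these ratios. The spacing also depends on the scaling between libraries, which is not known, so the ratios are no measure of depth by themselves.

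Of all 3271 tested genes 19.4% met the threshold at 2 h, 15.4% at 12 h and 8.19% at both times. For genes without a symbol the share at both times was 9.02%, and for genes with a symbol it was 6.72%, or 79 of 1176. The mirror rule, at least 1.5-fold lower at both times, took 227 genes without a symbol, or 10.8%. The median effect of the 189 was 0.86 at 2 h and 0.83 at 12 h, and most lay near the threshold: 96 had a smaller effect under 0.75, 30 reached 1 at both times, which 1.04% of all tested genes did, and 3 reached 2.

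**Figure D1:**
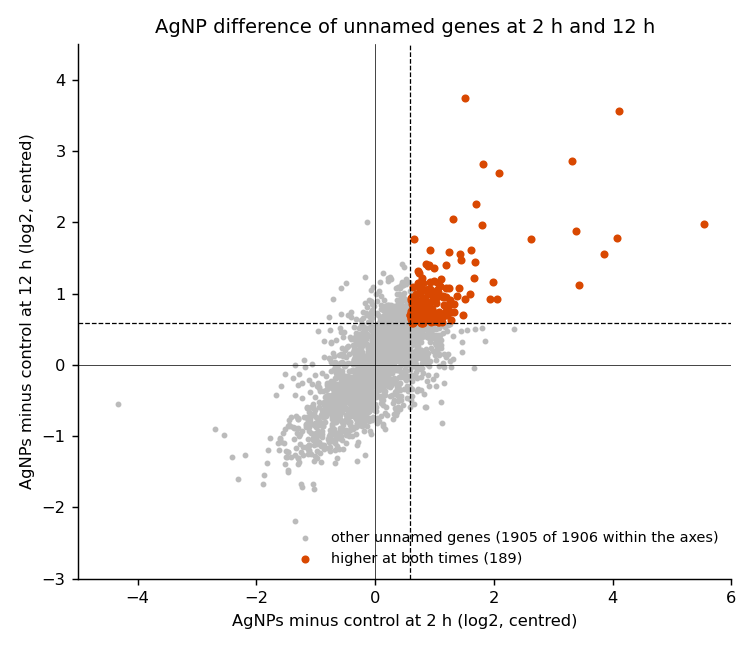
Each point is an unnamed gene with a mean of at least 5 FPKM. The axes give the difference between AgNPs and control at 2 h and at 12 h on the log2(FPKM + 1) scale, centred on the median of all tested genes, and dashed lines mark the 1.5-fold threshold. The 189 genes chosen crowd near the corner of the lines, and a small number lie far from it.

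At the threshold itself the choice is narrow. Cre06.g260800, the last gene inside, had effects of 0.77 and 0.59, and its FPKM were 6.99 and 23.7 for CK at the early and late time, against 17.9 and 49.3 for AgNPs. Cre12.g556450, next to it, had 0.59 and 0.70. Cre02.g141900 had 0.62 and 0.59, and Cre13.g586250 had 0.81 and 0.59. The first genes outside were Cre01.g054350 with 0.58 and 1.03, Cre02.g114575 with 0.79 and 0.58, Cre02.g105200 with 1.27 and 0.58 and Cre06.g272150 with 0.90 and 0.58.

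The genes with the largest effects fall apart by their level in the controls and by their course. The first kind was barely listed without silver: 4 of the 189 were under 1 FPKM in both controls. With a mean of at least 5 FPKM required, genes this low in both controls could be tested only if high with AgNPs. Their being higher with AgNPs is thus set by the filter, and the share among all tested genes was not computed. Cre10.g437400 (chromosome 10, 2632792 to 2635112) was listed at 0 FPKM in both controls and at 23.0 with AgNPs at 2 h and 15.1 at 12 h. Cre10.g453850 (chromosome 10, 4797898 to 4801487) was listed at 0 in both controls, at 22.6 at 2 h and at 3.64 at 12 h. Both were thus seen with AgNPs alone, and no fold is given against a 0.

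In the sentences below, pairs of FPKM give 2 h first and 12 h second. Cre05.g236039 (chromosome 5, 2551494 to 2555425) stood at 0.729 and 0.849 FPKM for CK, against 13.9 and 7.55 for AgNPs, 19.1-fold and 8.89-fold higher. Cre02.g111900 (chromosome 2, 5941720 to 5944280) was listed at 0 for CK at 2 h and at 0.0889 for CK at 12 h, against 2.99 and 18.7 with AgNPs. Its AgNP level was higher at 12 h, where that of the other 3 was higher at 2 h. Zeros in these tables have to be read with care. Of all tested genes 6 were listed at 0 in some library, 3 of them among the 189. One outside the 189, Cre14.g634279, was listed at 0 for CK at 2 h, yet at 38828 FPKM for CK at 12 h and at 28098 and 29051 for AgNPs.

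The second kind had its larger effect at 2 h. In 7 genes the effect at 2 h exceeded that at 12 h by at least 1, Cre10.g453850 among them. Cre01.g029700 (chromosome 1, 4388403 to 4390175) had the largest effect of all 189 at 2 h, 5.54. Its FPKM were 3.91 in the 2 h control and 317 with AgNPs, 81.2-fold more. At 12 h they were 60.0 and 325, 5.43-fold more. The AgNP libraries were nearly equal, and the smaller effect at 12 h came with a higher control.

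Cre08.g372200 (chromosome 8, 2529268 to 2530757) likewise had a much higher control at 12 h, with 5.05 and 54.6 FPKM for CK, against 90.6 and 163 for AgNPs. In Cre10.g453850 and in a pair of genes on chromosome 7 the AgNP level itself was lower at 12 h. Cre07.g346900 (chromosome 7, 4987085 to 4990515) stood at 1.68 and 0.577 FPKM for CK, against 53.3 and 5.26 for AgNPs, 31.7-fold and 9.12-fold higher. Cre07.g346950 (chromosome 7, 4996500 to 5000945) stood at 4.70 and 4.85 for CK, against 81.8 and 28.1 for AgNPs. The CK values of each of these genes were low at both times, while the AgNP values were much lower at 12 h than at 2 h. Cre02.g115800 and Cre07.g350976, the remaining 2 of the 7, had effects of 2.05 and 0.92 and of 1.93 and 0.92.

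The third kind had its larger effect at 12 h. Beside Cre02.g111900 this held by at least 1 for Cre17.g709450 and Cre12.g500050. Cre17.g709450 (chromosome 17, 1786618 to 1788243) stood at 3.90 and 3.20 FPKM for CK, against 23.0 and 39.2 for AgNPs, with effects of 1.81 and 2.82. Cre12.g500050 (chromosome 12, 3103176 to 3105009) stood at 6.12 and 5.15 for CK, against 14.6 and 27.3 for AgNPs. In both, the control was slightly lower at 12 h and the exposed culture higher. In Cre01.g004900, next in this order, both were higher at 12 h, with 4.11 and 14.5 FPKM for CK and 16.7 and 85.9 for AgNPs.

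Most genes showed no such shift: in 117 of the 189 the effects at 2 h and 12 h lay within 0.25 of each other, and 87 had the larger one at 12 h. The rule sets the same floor under both effects and most genes lie near it, so part of this closeness follows from the choice. The shares of all tested genes with or without such shifts were not computed. By its smaller effect Cre13.g583450 (chromosome 13, 2878238 to 2881535) came next after Cre10.g437400. It stood at 7.17 and 32.3 FPKM for CK, against 113 and 326 for AgNPs, 15.7-fold and 10.1-fold higher. Cre10.g425850 (chromosome 10, 1158096 to 1161387) stood at 15.1 and 22.4 for CK, against 95.0 and 205 for AgNPs. In both genes each AgNP library lay well above each control.

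Cre02.g115950 had 0.710 and 1.65 FPKM for CK, against 7.26 and 13.0 for AgNPs. Cre16.g659300 had 3.27 and 4.70 against 18.4 and 36.1. Cre05.g241647 had 2.39 and 4.11 against 13.5 and 20.2, with nearly equal effects of 1.62 and 1.61. These 3 complete the 12 genes with the largest smaller effect. In none of the 12 did the AgNP and control values overlap. As deposited, both AgNP values lay above both controls in 41.4% of all tested genes, and the 12 were ranked by these same values.

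**Figure D2:**
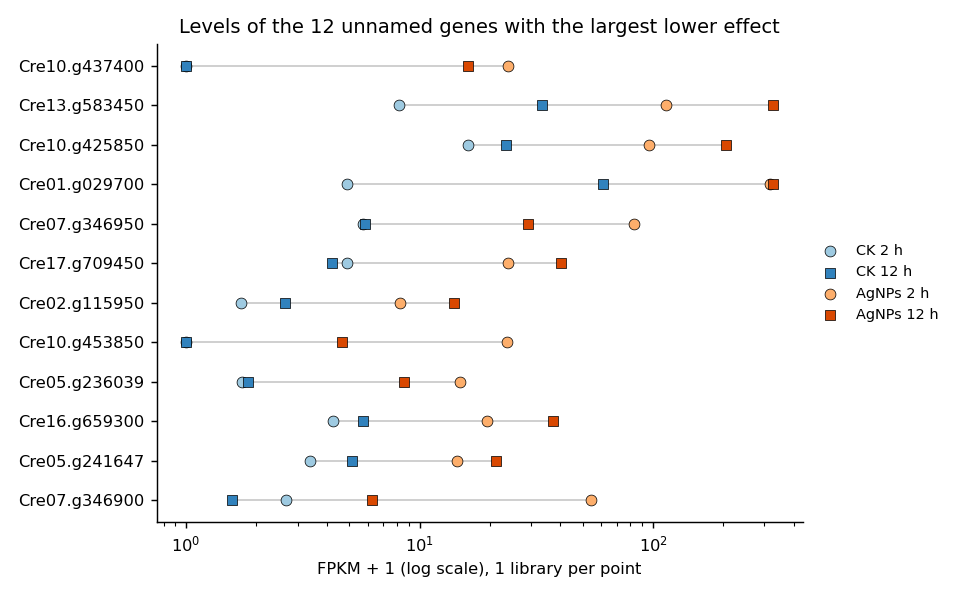
Each row is 1 of the 12 genes with the largest smaller effect, and each point is the value of 1 library as FPKM + 1 on a log scale. Blue points are controls and orange points AgNP libraries, circles 2 h and squares 12 h. In all 12 rows both orange points lie to the right of both blue ones, as they would in 41.4% of all tested genes.

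The 12 genes were followed through 5 other ways of computing. All 12 met the threshold at both times once the relation to span had been taken out, with libraries scaled to equal sums and no centring, and with the 12 h control as the reference at both times. With the 2 h control as the reference 11 did, since Cre07.g346900 came to 0.51 at 12 h. With a pseudocount of 5 FPKM 10 did, without Cre07.g346900 (0.55 at 12 h) and Cre10.g453850 (0.46). Of the 30 genes with effects of at least 1 at both times 30 remained with the span trend taken out, 23 with equal sums and 22 against the 12 h control. Of the other 159 genes 54, 9 and 29 remained, so the bulk of the list depends on the scaling and on the control used. The 12 and the 30 were picked by the size of these same effects in these same libraries. Their passing more often follows largely from that choice and is no independent support.

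The most abundant of the 189 had modest effects. Cre01.g051500 (chromosome 1, 7122680 to 7124615) had the highest mean level, with 2046 and 2784 FPKM for CK, against 4686 and 6407 for AgNPs, 2.29-fold and 2.30-fold higher before centring. Cre10.g418450 stood at 1025 and 3242 for CK, against 2589 and 7445 for AgNPs. In Cre10.g418450 the 2 h AgNP value was below that of the 12 h control.

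Cre01.g007051 stood at 1297 and 2001 FPKM for CK, against 3002 and 4322 for AgNPs. Cre12.g529651 stood at 1225 and 1858 against 2848 and 3857. These genes kept both AgNP values above both controls. Cre03.g195388 (575 and 2048 against 1937 and 4664) and Cre05.g233950 (578 and 1741 against 1654 and 4872) did not. Together the 189 genes took 2.79% and 2.55% of the FPKM sum for CK, against 2.85% and 4.23% for AgNPs. Their share of the sum was thus nearly the same with and without AgNPs at 2 h.

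Over the whole list the median level was 11.5 FPKM for CK at 2 h, 25.4 for CK at 12 h, 33.9 for AgNPs at 2 h and 65.5 for AgNPs at 12 h. By the rule an AgNP library is the highest of the 4 and a control the lowest in each of these genes. The highest was the 12 h AgNP library in 170 genes and the 2 h AgNP library in 19, and the lowest was the 2 h control in 174. Over all tested genes these shares were 51.8%, 26.2% and 53.5%. Both AgNP values exceeded both controls in 146 of the 189 as deposited, where the share among all tested genes was 41.4%. With the libraries scaled to the same median ratio this held for 105 genes (17.0% of all tested) and with equal sums for 76 (5.14%). It was at least 2-fold in 41, 20 and 14 genes under these scalings, beside 1.99%, 0.703% and 0.52% of all tested genes. The rule already sets AgNPs above the control within each time, so the shares of all tested genes are given as background and nothing is read from the excess.

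The time course between 2 h and 12 h was not part of the rule, though each of its libraries was. In the controls 163 of the 189 genes lay above the median change of tested genes, where 50% of all tested genes do so by construction, and 162 did so with AgNPs. In the controls 118 stood at least 1.5-fold higher at 12 h, where 24.8% of all tested genes and 27.6% of those without a symbol did, and 6 at least 1.5-fold lower, where 24.3% and 20.6% did. With AgNPs 116 were higher by that much, beside 24.0% and 27.8%, and 13 lower, beside 25.0% and 21.1%. The median change was 0.74 in the controls and 0.73 with AgNPs. With equal sums and no centring 78 of the 189 were higher at 12 h in the controls, so the direction holds relative to the median gene and not on every scale.

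**Figure D3:**
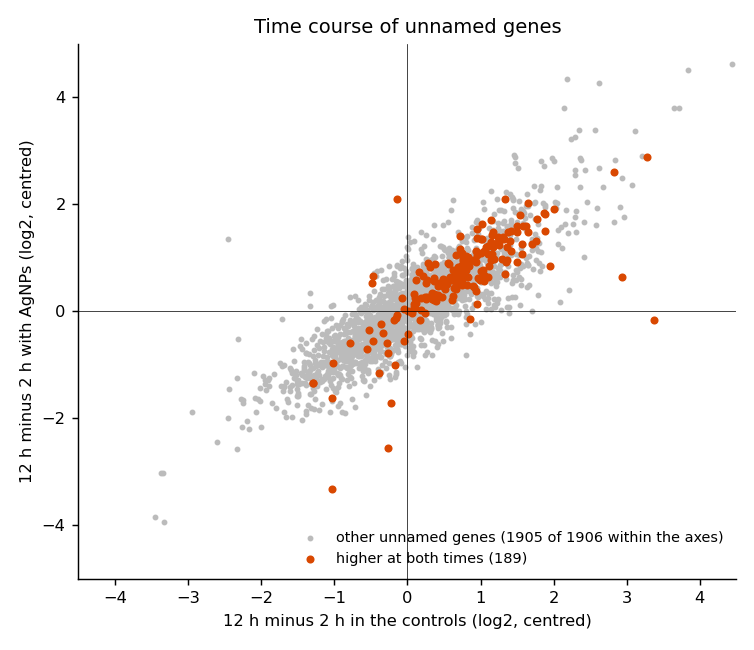
Each point is an unnamed tested gene, with its change from 2 h to 12 h in the controls on the horizontal and with AgNPs on the vertical axis, both on the log2(FPKM + 1) scale and centred on all tested genes. Most of the 189 orange points lie at the upper right, where both changes are above the median.

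Of the 189 genes 102 were at least 1.5-fold higher at 12 h both in the controls and with AgNPs, 6 were lower in both, and 0 went opposite ways by that much. The shares of all tested genes with these joint patterns were not computed, so nothing is read from the counts. Cre12.g554850 (chromosome 12, 7633751 to 7636062) is an example of a gene higher in both. It stood at 8.11 and 105 FPKM for CK, against 29.3 and 256 for AgNPs. Cre11.g480950 stood at 2.10 and 25.4 for CK, against 8.85 and 68.2 for AgNPs. In both genes the 12 h control exceeded the 2 h AgNP library, as it did in 43 of the 189.

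Among genes lower at 12 h were Cre03.g168950, at 26.1 and 12.2 FPKM for CK, against 62.1 and 27.8 for AgNPs, and Cre17.g726450, at 63.6 and 30.6 against 154 and 69.5. Cre12.g507800 stood at 6.14 and 3.21 for CK, against 29.3 and 10.3 for AgNPs. In these genes and in Cre07.g346900 the AgNP value stayed above the control of its own time while both were lower at 12 h. The 12 genes with the largest smaller effect were mixed in this respect. Above the median change in the controls lay 6 of them, and Cre10.g437400 and Cre10.g453850, listed at 0 in both controls, have no such change to compare.

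The 189 genes were short. Their median span, introns included, was 2179 bp (quartiles 1635 and 3001), against 3256 bp (2327 and 4595) in the other 1906 tested genes without a symbol and 5097 bp in the 227 genes lower at both times. The 79 genes with a symbol that met the same rule had a median span of 2226 bp, close to that of the 189. By span, the share of genes chosen went from 57 of 262 (21.8%) among those up to 1789 bp to 6 of 262 (2.29%) among those from 5698 bp. Effects followed span in all tested genes without a symbol: the median effect was 0.51 at 2 h and 0.47 at 12 h in the shortest eighth and -0.44 and -0.52 in the longest. Chosen after removal of that trend, 137 genes met the rule, 84 of them among the 189, and their median span was 3744 bp against 3104 bp in the others, so the shortness of the list turned round.

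**Figure D4:**
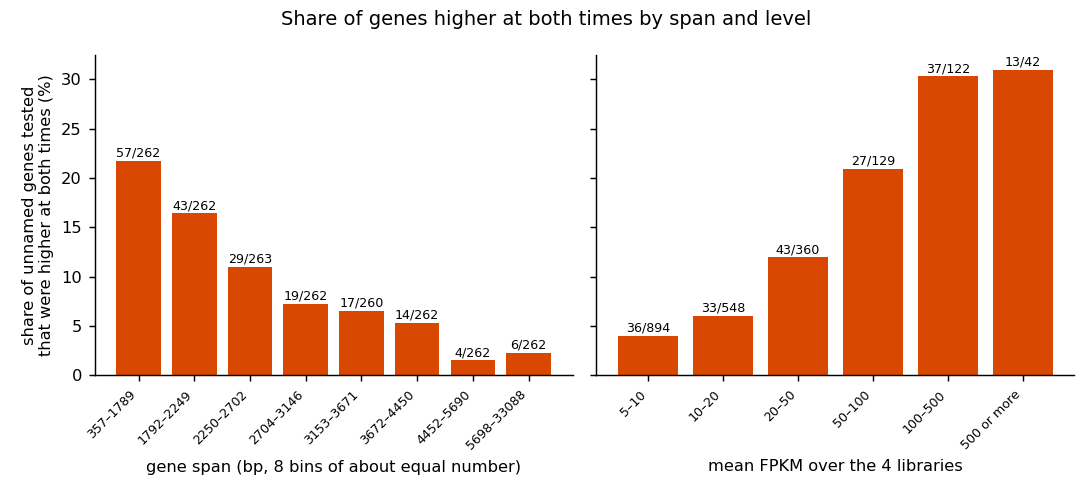
Bars give the percentage of unnamed tested genes that were higher at both times, by gene span on the left and by mean FPKM on the right, with the counts above each bar. The share falls from 21.8% to 2.29% from the shortest to the longest genes and rises from 4.03% to 31.0% from the lowest to the highest level.

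Level went with the choice as well. Of genes with a mean of 5 to 10 FPKM 36 of 894 were chosen (4.03%), and of genes at 500 FPKM or more 13 of 42 (31.0%). At each level shorter genes were chosen more often. Between 100 and 500 FPKM it was 33 of 88 genes up to the median span of 3146 bp and 4 of 34 longer ones. Between 5 and 10 FPKM it was 24 of 351 and 12 of 543. The 30 with effects of at least 1 at both times had a median span of 2715 bp and a median of the mean level of 17.1 FPKM, and the other 159 had 2074 bp and 36.1 FPKM. The time course also followed span and level. Among other genes without a symbol no longer than the median of the 189, 69.5% lay above the median change in the controls, against 86.2% of the 189, and 50.7% of all other tested genes without a symbol did. By level, the share among the other genes without a symbol went from 42.5% at 5 to 10 FPKM to 96.6% at 500 FPKM or more. The median of the mean level was 33.3 FPKM in the 189 and 11.1 in those others. How far span or level bears on the choice or on the time course was not tested.

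The 189 genes lay on all 17 chromosomes, from 1 of 43 tested genes without a symbol on chromosome 4 (2.33%) to 3 of 16 on chromosome 15 (18.8%), and 2 lay on scaffolds. In 4 cases the locus in the tables is shared with an overlapping gene (Cre05.g241655, Cre02.g075000, Cre09.g387949 and Cre12.g495951), and reads of such genes may be split between them. Of the 189, 20 (10.6%) were direct neighbours of another of them and 26 (13.8%) had another within 2 gene positions. Of the other 1906 tested genes without a symbol 41 (2.15%) were direct neighbours of one of the 189 and 85 (4.46%) lay within 2 positions.

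The 20 formed 10 pairs out of 326 pairs of adjacent tested genes without a symbol. Between the genes of 8 of the 10 pairs lay fewer than 400 bases, as in 78.8% of those 326 pairs. With so little between them, reads running from one gene into the next cannot be told apart here, since the strand is not in the tables. Cre16.g659300 (chromosome 16, 2309069 to 2310903) and Cre16.g659350 (2311223 to 2313098) lay 319 bases apart. Cre16.g659350 stood at 30.9 and 25.5 FPKM for CK, against 66.2 and 59.9 for AgNPs, so its effects of 0.60 and 0.76 were far below the 1.7 and 2.26 of its neighbour.

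On chromosome 13, Cre13.g586550 (3320995 to 3322420) and Cre13.g586600 (3322531 to 3326122) lay 110 bases apart, and Cre13.g586450 lay 1 gene further. Cre13.g586550 stood at 8.0 and 10.6 FPKM for CK, against 32.8 and 45.1 for AgNPs. Cre13.g586600 stood at 1.5 and 5.05 against 5.57 and 11.7. The gene between this pair and Cre13.g586450 was under 0.5 FPKM in all 4 libraries.

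On chromosome 2, Cre02.g093600 and Cre02.g093650 lay 60 bases apart at very different levels, with 2.49 and 9.83 FPKM in the controls for the first and 231 and 531 for the second. With AgNPs they stood at 8.14 and 28.6 and at 599 and 1511. Their effects were nearly the same, 0.91 and 1.01 for the first and 0.89 and 1.07 for the second. Cre17.g737000 and Cre17.g737050 (100 bases apart) had effects of 0.82 and 0.81 and of 1.03 and 0.86. Cre11.g478700 and Cre11.g478750 (197 bases apart) had 0.73 and 1.28 and 0.79 and 1.22. Effects within each of these 3 pairs were close, though the levels were not the same. The quartiles of all 189 were 0.73 and 1.09 at 2 h and 0.70 and 1.04 at 12 h. Genes of the list that are not neighbours can therefore be as close, and nothing is read from it. The pairs of Cre16.g659300 and of Cre13.g586550 differed more.

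The remaining neighbours named by the same rule belonged to pairs further apart or of unlike course. Cre01.g028777 and Cre01.g028850 lay 7202 bases apart, with effects of 0.74 and 0.78 for the first and 1.67 and 1.22 for the second. Cre03.g206452 lay 5 bases from its partner and was lower at 12 h than at 2 h, with 11.8 and 6.56 FPKM for CK, against 34.0 and 19.5 for AgNPs. Its partner, Cre03.g206450, stood at 200.2 and 391 for CK, against 461 and 884 for AgNPs, higher at 12 h. Cre10.g435100 had effects of 1.17 and 0.83.

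Both early genes of chromosome 7 belong together in position. Cre07.g346900 and Cre07.g346950 were 5984 bases apart, with 2 genes between them that stood at 0.205 FPKM or less in all 4 libraries. Cre07.g346850, on the other side of Cre07.g346900, was too low for the rule but had the same course, with 0.325 and 0 FPKM for CK, against 8.69 and 1.21 for AgNPs. Within these 5 gene positions, then, 3 genes were higher with AgNPs at 2 h and less so at 12 h, and 2 were barely listed.

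Of the 378 places next to one of the 189, 20 were held by another of them and 71 by other tested genes. The 71 had a median effect of 0.06 at 2 h and 0.02 at 12 h, and 2 of them (2.82%) were higher at both times. By the rule such genes can only be ones with a symbol, and over all tested genes outside the 189 the share was 79 of 3082 (2.56%). At 2 to 5 positions away it lay between 1.28% and 3.95%, so tested neighbours outside the list were higher about as often as tested genes elsewhere. Next to Cre10.g437400 the levels were low: Cre10.g437350 before it had 2.51 and 2.02 FPKM for CK and 1.38 and 1.82 for AgNPs, and Cre10.g437450 after it had 3.74 and 3.08 against 4.25 and 3.21. TOM7, which is 1 gene further and whose symbol is that of a subunit of the mitochondrial import channel, had effects of 1.22 and 0.67.

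**Figure D5:**
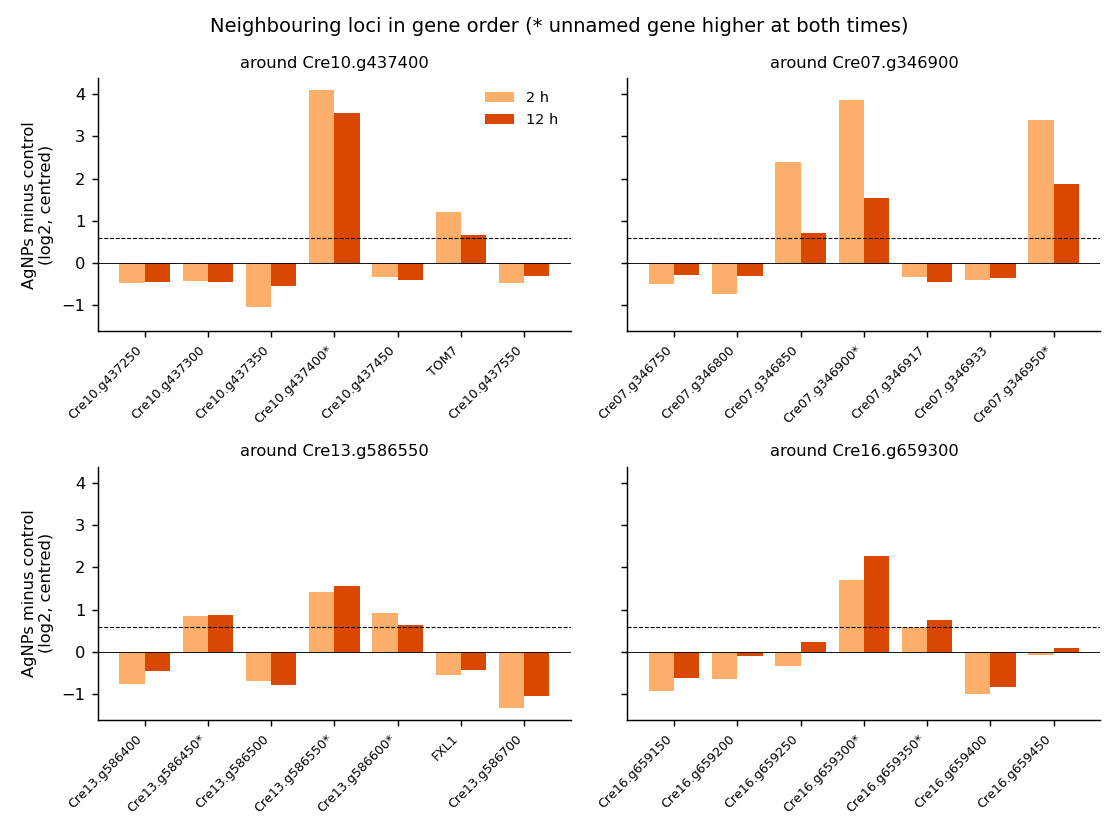
Bars give the AgNP minus control difference at 2 h and 12 h (log2(FPKM + 1), centred on all tested genes) for the 3 genes on each side of 4 of the genes described, in gene order, with those of the 189 starred and the threshold dashed. Genes near 0 FPKM in all libraries stand at about -0.4 because of the centring. Starred genes stand above the dashed line by the rule, and so above most of their neighbours. Cre07.g346850 is high beside Cre07.g346900.

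Among the genes with a symbol that met the same rule, CYC6 exceeded all of the 189 at both times and FDX5 at 2 h only. CYC6 had effects of 7.93 and 7.83 and FDX5 6.16 and 3.39, where the largest among the 189 were 5.54 at 2 h and 3.74 at 12 h. FDX5, with 11.0 and 16.8 FPKM for CK, against 1199 and 251 for AgNPs, was lower at 12 h with AgNPs, as were Cre07.g346900 and Cre07.g346950. THB1, a truncated hemoglobin gene, had effects of 1.76 and 2.16, near those of Cre02.g115950 (1.79 and 1.97). The 79 genes with a symbol had median effects of 0.82 and 0.78, against 0.86 and 0.83 in the 189. The median level of the 79 in the 2 h control, 65.8 FPKM, was above that of the 189.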

How the data were processed

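Groups came from the sample titles, with 1 library each. Per the file headers, the authors deposited 1 FPKM value per gene and library. The submitters' processing notes name Cuffdiff, without a version. For the aligner, the build and the scaling between libraries nothing was given in the sources used here. The 4 tables were joined on the gene identifier. Loci in the files count from 0 and are printed 1-based, and spans and gene order come from them. The RefSeq gene table (assembly v5.5) matched 17738 identifiers, 189 of the 189 genes among them. It was used only to match identifiers and compare positions, and it supplied no names. Genes with a mean under 5 FPKM were left out (12755 of those without a symbol). The genes described, the rule and the lists were chosen with earlier results of these data known. Genes named in the text are the 12 with the largest smaller effect, the 6 most abundant, the 4 at each end of the control time change and of the 12 h minus 2 h effect, 12 adjacent genes, and 4 on each side of the threshold. Others named (partners and neighbours, genes at 0 and genes with a shared locus) were chosen after their values were seen. Alternatives were pseudocounts of 0.1 and 5, other filters, scalings, thresholds and controls, and removal of a lowess trend with log2 span (fraction 0.5). The code was tested on simulated data. Planned descriptions of promoters and proteins were not run, and sequences were not used here. Tables were handled with pandas 2.3.3 and numpy 2.4.6 in Python 3.11.15, trends fitted with statsmodels 0.14.6 and plots drawn with matplotlib 3.10.9.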

Additional observations from a re-analysis of the deposited data

Results flagged for a closer look

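In 2 of those of the 189 genes that are named above, the change from 2 h to 12 h had opposite signs in the controls and with AgNPs, both as deposited and after centring. The difference was not tested, since each change rests on 1 pair of libraries. For Cre17.g709450 the centred change was -0.48 in the controls and 0.54 with AgNPs, a difference of 1.02. For Cre12.g500050 it was -0.48 and 0.65, a difference of 1.13.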

How the results depend on the processing

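The main limits are 1 library per group and unknown scaling between libraries, so the number of genes chosen (189) moved with most settings. It was 876 with no filter, where the centre was also retaken over 16071 genes. With the reported centre kept, 27 of the 12755 genes without a symbol under the filter met both differences. The number was 29 with a mean of at least 20 FPKM and 679 with no centring. It was 32 with equal sums and no centring, and 124 with upper quartile scaling. With a threshold of 1 it was 30, with the 12 h control at both times 96 and with the 2 h control 350. The median effect of the 189 at 2 h (0.86) was 1.34 with no filter and with no centring, 0.53 at 20 FPKM, 0.10 with equal sums and 0.15 against the 12 h control. At 12 h (0.83) it was 1.28 with no filter, 0.54 at 20 FPKM, 1.27 with no centring and 1.64 against the 2 h control. Of the 189, 120 passed the filter of 20 FPKM, which raises the median gene. Those higher at 12 h in the controls (163) numbered 100 at 20 FPKM and 78 with equal sums. The ratio of the median span to that of the other genes (0.669) turned to 1.21 after removal of the span trend. For the other settings and results 27 values kept their direction and lay within 1.5 times the reported value (for the ratio of spans, within 0.15). Equal sums followed by centring, added after the data were seen, gave 180 genes, 171 of them among the 189. The ratio read from the spacing of low values was lowest in the 12 h AgNP library, but it may reflect scaling as well as depth. No paired analysis was run, since the results come from no test, and the labels give no replicate numbers. A fit of AgNPs with the times as pairs would leave 1 residual degree of freedom and was not run, since these differences chose the genes. With 1 library per group none was left out.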

Other observations

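Below the filter, of the 12755 genes without a symbol and with a mean under 5 FPKM, 27 met both differences with the reported centre. They were chosen after the data were seen. The highest were Cre02.g142150 (2.02 and 2.56 FPKM for CK, 5.62 and 8.31 for AgNPs, early time first), Cre18.g748747 (1.17 and 2.10 against 7.36 and 7.50) and Cre01.g009550 (1.07 and 2.36 against 4.39 and 10.3). Cre01.g027300 stood at 0.537 and 0.224 for CK, against 12.5 and 4.52 for AgNPs, the early course seen in Cre05.g236039.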
